A study of Mus musculus with 20 samples.

Results

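Red cells and their precursors leave a small set of transcripts in any tissue that holds blood, and 5 of them were followed here in mouse antral follicles: the alpha globin genes Hba-a1 and Hba-a2, the beta globin genes Hbb-bs and Hbb-bt, and Alas2, which encodes the form of aminolevulinate synthase that starts heme production in red cell precursors. They were chosen by symbol, as the 5 members of an erythroid list whose higher values at 500 mg/L were already known, and all 5 were found among the 39253 genes of the count table and among the 17810 genes that passed the filter on low counts. The levels of the 500 mg/L group and their differences from controls are therefore given as a description, with no test. Its mice do enter the correlations and slope fits over the 20 mice. The animals were 20 outbred CD-1 females that drank plain water (10 mice) or water with iodoacetic acid (IAA), a disinfection by-product, at 10 mg/L (5 mice) or 500 mg/L (5 mice), from 40 days of age for 35 days.

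Each library was made from the 30 to 40 antral follicles, 220 to 400 µm across, that were dissected from 1 mouse in diestrus. Experiment 1 held control replicates 6 to 10 and the 500 mg/L mice, and experiment 2, which was run a month apart, held control replicates 1 to 5 and the 10 mg/L mice. Dose and experiment can therefore be told apart only through each experiment's own controls. Library totals ran from 39856800 to 67490200 estimated counts, and levels below are CPM, counts scaled to the library total with TMM factors. Markers of the labelled tissue were present in every mouse: the inhibin alpha gene Inha of granulosa cells averaged 5479 CPM, the steroid synthesis gene Hsd3b1 of theca cells 3950 CPM, and the egg coat gene Zp3 of the oocyte 56.6 CPM.

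Adult hemoglobin is a tetramer of alpha and beta chains, each holding a heme group, and late red cell precursors make both chains in balance. In mammals the mature red cell has no nucleus and makes no new transcripts, and globin mRNA stays longest in the young circulating reticulocytes. In the ovary, the theca layer of an antral follicle holds blood capillaries, while the granulosa layer and the oocyte inside it hold none.

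The members of each globin pair differ too little for most reads to be assigned to 1 gene, so their sequences bear on every value below. The coding sequences of Hba-a1 and Hba-a2 (GENCODE vM21, build GRCm38) are 429 bases long and differ at 1 base, and those of Hbb-bs and Hbb-bt are 444 bases long and also differ at 1 base. The stretches around these bases are shown 5′ to 3′ with the differing base in capitals:
Hba-a1: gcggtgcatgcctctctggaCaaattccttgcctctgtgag
Hba-a2: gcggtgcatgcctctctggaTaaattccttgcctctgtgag
Hbb-bs: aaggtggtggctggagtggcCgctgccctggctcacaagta
Hbb-bt: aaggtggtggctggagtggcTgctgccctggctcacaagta

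The alpha pair differs at coding base 381 and the beta pair at coding base 417, counted from the A of the start codon. Of all stretches as long as a read (101 bases) in the Hba-a1 coding sequence, 85.1% are also in Hba-a2, and 91.9% of those of Hbb-bs are in Hbb-bt. Over the whole transcripts, UTRs included, 74.2% of such stretches of Hba-a2 occur in Hba-a1 and 54.7% of those of Hbb-bt in Hbb-bs. The split within a pair is thus an estimate of the authors' quantifier and is uncertain. No 101-base stretch of Hbb-bs occurs in Hba-a1, so the alpha and beta chains were measured from separate reads.

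The promoters of the members are shown as a description, and a link between their motifs and the levels below was not tested. The 250 bases before each gene's start (RefSeq, build GRCm38.p6, read along the gene's strand) were searched on both strands for the GATA site with the letters GATAA, the CACCC box with the letters CACCC, the CCAAT box and the TATA box with the letters TATAA, all printed in capitals. They lie at chr11:32283422-32283671 (+ strand) for Hba-a1, chr7:103827929-103828178 (− strand) for Hbb-bs, chr7:103813924-103814173 (− strand) for Hbb-bt and chrX:150547167-150547416 (+ strand) for Alas2, and that of Hba-a2 is identical to Hba-a1 over the 247 bases that could be compared:
Hba-a1: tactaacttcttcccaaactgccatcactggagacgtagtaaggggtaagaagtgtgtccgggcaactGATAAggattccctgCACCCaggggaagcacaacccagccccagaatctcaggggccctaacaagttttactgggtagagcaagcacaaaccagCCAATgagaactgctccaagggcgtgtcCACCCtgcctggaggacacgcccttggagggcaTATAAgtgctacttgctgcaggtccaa
Hbb-bs: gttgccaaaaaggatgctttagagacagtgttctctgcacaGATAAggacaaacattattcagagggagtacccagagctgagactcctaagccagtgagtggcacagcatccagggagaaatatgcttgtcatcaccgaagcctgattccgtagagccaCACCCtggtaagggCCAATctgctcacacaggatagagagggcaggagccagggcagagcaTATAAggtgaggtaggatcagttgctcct
Hbb-bt: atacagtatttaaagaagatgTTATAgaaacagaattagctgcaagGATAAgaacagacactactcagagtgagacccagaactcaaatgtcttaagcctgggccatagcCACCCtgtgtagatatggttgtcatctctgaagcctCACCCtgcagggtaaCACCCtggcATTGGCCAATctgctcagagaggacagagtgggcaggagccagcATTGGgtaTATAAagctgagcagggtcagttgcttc
Alas2: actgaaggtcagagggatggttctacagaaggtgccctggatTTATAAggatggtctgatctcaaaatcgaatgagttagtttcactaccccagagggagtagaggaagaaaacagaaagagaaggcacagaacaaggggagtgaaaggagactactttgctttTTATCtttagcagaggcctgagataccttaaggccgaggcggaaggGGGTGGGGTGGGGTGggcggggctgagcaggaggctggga

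GATA sites are bound by GATA factors and CACCC boxes by Krüppel-like factors, while the CCAAT box and the TATA box are common promoter elements. The 4 globin promoters each held all 4 motifs, and in each of them a TATA box began 27 to 30 bases before the gene's start. Alas2 held a GATA site and 3 CACCC boxes on the opposite strand and its TATA box letters, which read on both strands and overlap, 207 bases before the start, and no CCAAT box was in this window. Of 27025 promoters of the same length, 23.0% held a GATA site, 51.3% a CACCC box, 34.5% a CCAAT box and 23.5% a TATA box, so a match of this kind is a description and not a site.

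Globin mRNA was a trace of every library. The 4 globins summed to 11.7 CPM in the lowest mouse, control replicate 3, and to 124.6 CPM in the highest, replicate 4 at 500 mg/L, or 0.00118% to 0.0126% of the counts. Per kilobase of coding sequence, Hba-a1 averaged 56.3 CPM and Hbb-bs 50.5 CPM, against 5.04 CPM for Hbb-bt, 3.72 CPM for Alas2 and 0.812 CPM for Hba-a2. Alpha and beta chains were close to balance in each mouse, with 0.843 to 1.27 alpha counts per beta count, and this ratio was 1.01 ± 0.116 in controls (SD, n = 10), 1.03 ± 0.161 at 10 mg/L (SD, n = 5) and 1.04 ± 0.140 at 500 mg/L (SD, n = 5). In bulk samples, fewer red cells and less RNA per red cell cannot be told apart.

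Hba-a1, to which most alpha counts were assigned, measured 6.32 to 35.6 CPM in the 10 controls, with a median of 16.2 CPM. At 10 mg/L it measured 8.01, 50.1, 12.6, 27.2 and 40.8 CPM in replicates 1 to 5. At 500 mg/L it measured 23.9, 11.7, 13.0, 68.9 and 48.0 CPM in replicates 1 to 5. In each exposed group 2 mice lay above every control and the other 3 within the control range, so the groups overlapped.

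Hbb-bs, to which most beta counts were assigned, was high in the same 4 mice. Controls ran from 4.72 to 31.7 CPM with a median of 14.1 CPM. The 10 mg/L mice measured 5.61, 52.4, 10.4, 24.4 and 44.9 CPM, and the 500 mg/L mice 21.8, 9.41, 13.6, 51.3 and 45.3 CPM, in replicates 1 to 5. Replicates 2 and 5 at 10 mg/L and replicates 4 and 5 at 500 mg/L were above all controls, as they were for Hba-a1, although the highest mouse of all was replicate 2 at 10 mg/L here and replicate 4 at 500 mg/L for Hba-a1.

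Hbb-bt, to which fewer beta counts were assigned, ran from 0.581 to 3.51 CPM in controls with a median of 1.42 CPM. It measured 0.669, 2.91, 1.28, 3.62 and 3.68 CPM at 10 mg/L and 3.07, 1.30, 0.625, 4.05 and 5.39 CPM at 500 mg/L. Replicates 4 and 5 of each exposed group lay above all controls, while replicate 2 at 10 mg/L, second of all mice in summed globins, lay within the control range. Hbb-bt made up 4.47% to 14.3% of beta counts, the lowest share being in replicate 3 at 500 mg/L (exact 95% interval 2.92% to 6.33%) and the highest in control replicate 7 (12.1% to 16.7%). These intervals cover counting error only, and not the split of shared reads. CD-1 mice are outbred and can carry beta globin haplotypes other than the reference one, and how reads from such genes were shared between Hbb-bs and Hbb-bt cannot be read from the counts.

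Hba-a2, the second alpha chain gene, rested on 0 to 63 counts per mouse. Controls ran from 0 to 1.16 CPM with a median of 0.0839 CPM. It measured 0, 1.51, 0.176, 0.344 and 0.893 CPM at 10 mg/L and 0.420, 0.337, 0, 0.425 and 0.228 CPM at 500 mg/L. The mice at 0 were control replicate 8, replicate 1 at 10 mg/L and replicate 3 at 500 mg/L, where a count of 0 allows up to 0.0623, 0.0590 and 0.0694 CPM. Hba-a2 took at most 4.01% of alpha counts (control replicate 1, exact 95% interval 2.98% to 5.30%).

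Alas2 shared the pattern of the globins in some mice only. Controls ran from 2.80 to 7.63 CPM with a median of 4.40 CPM. The 10 mg/L mice measured 11.2, 5.71, 6.03, 3.82 and 5.32 CPM and the 500 mg/L mice 5.57, 27.1, 3.77, 8.13 and 7.67 CPM, in replicates 1 to 5. At 500 mg/L replicates 2, 4 and 5 lay above all controls, and replicates 4 and 5 ranked 1 and 3 of 20 in summed globins. At 10 mg/L only replicate 1 lay above all controls. The 2 highest mice, replicate 2 at 500 mg/L and replicate 1 at 10 mg/L, ranked 16 and 18 of 20 in summed globins. Per 100 globin counts there were 119.5 Alas2 counts in the first of these mice and 4.62 in control replicate 1.

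**Figure D1:**
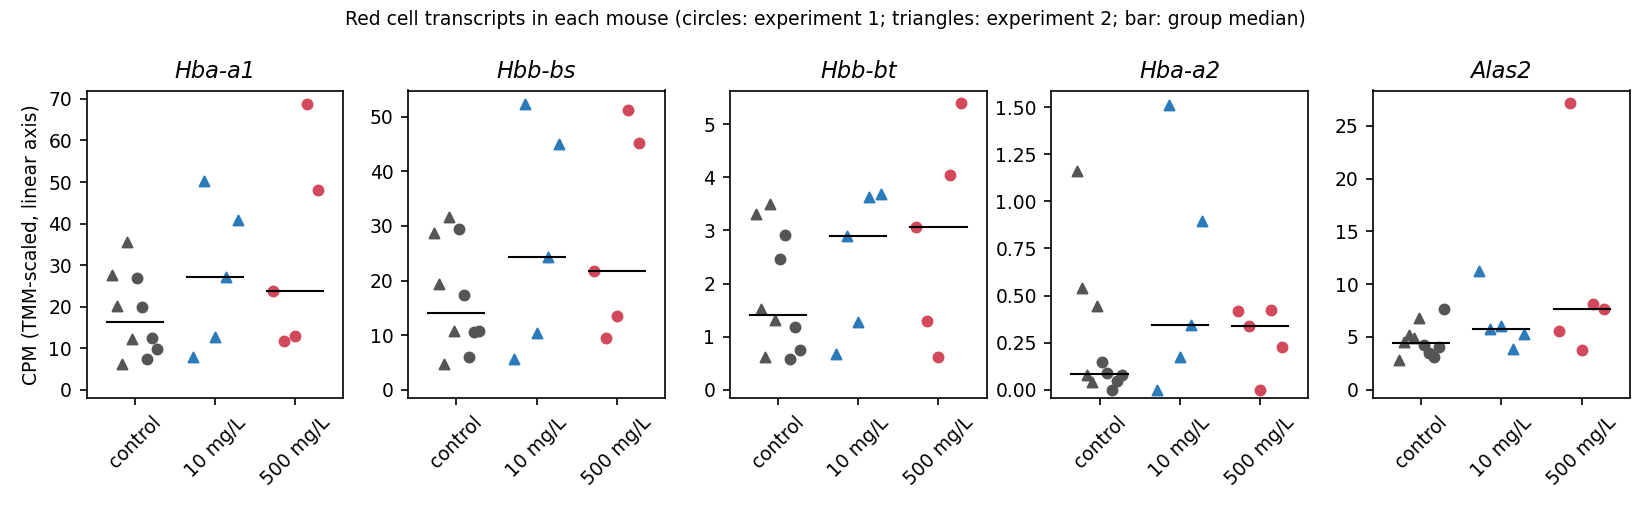
CPM of each gene (linear axes) in controls and at 10 and 500 mg/L IAA, with 1 point per mouse, circles for experiment 1, triangles for experiment 2 and a bar at the group median. The groups overlap in every gene, and the mouse at 27.1 CPM in Alas2 is low in the globins.

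Across the 20 mice the globins formed a block that Alas2 stood outside. Hba-a1 and Hbb-bs, which share no stretch of read length, had a Pearson r of 0.99 on log2 CPM (Spearman rho 0.97, permutation p = 1e-05, the smallest that 100000 resamples can give, adjusted over 10 pairs 3.33e-05, n = 20). Hbb-bt followed Hba-a1 with an r of 0.92 (rho 0.89) and Hbb-bs with an r of 0.90 (rho 0.85), with the same permutation p in each case. Hba-a2 correlated with the other globins at an r of 0.62 to 0.64 (rho 0.58 to 0.61, adjusted permutation p = 0.00645 for each r), and at an r of 0.41 to 0.45 among the 10 controls.

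Alas2 had an r of −0.10 with Hba-a1, −0.15 with Hbb-bs, −0.10 with Hbb-bt and 0.07 with Hba-a2, with rho from −0.02 to 0.14 (adjusted permutation p = 0.763 for each r). The r of Hba-a1 and Hbb-bs was 0.98 in experiment 1, 1.00 in experiment 2 and 0.99 among the controls, and it was 0.99 without the 2 mice farthest from the median of Hba-a1. The r of Hbb-bs and Alas2 was 0.08 in experiment 1 and −0.52 in experiment 2, with 10 mice in each. On deviations from the mean of group and experiment, without the 2 mice farthest from the first gene's median, and by rank, 6 of 10 pairs passed each time.

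**Figure D2:**
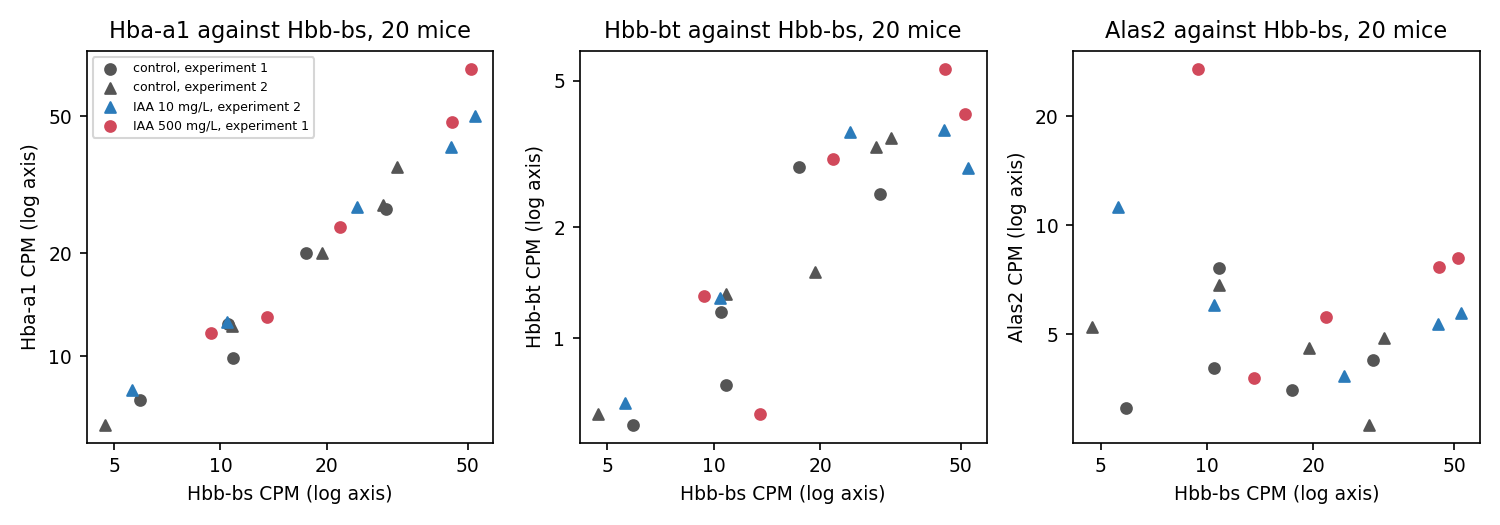
CPM of Hba-a1, Hbb-bt and Alas2 against Hbb-bs (log axes) in 20 mice, with colour for group and shape for experiment. Hba-a1 falls on a line with Hbb-bs (r of 0.99), and Alas2 shows no line (r of −0.15).

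Mice of the same group and experiment differed far more in these genes than in most. The residual SD on the log2 scale was 1.01 for Hba-a1, 1.12 for Hbb-bs, 1.08 for Hbb-bt, 1.54 for Hba-a2 and 0.69 for Alas2, against a median of 0.25 over all genes tested. Of all genes tested, 96.6% had a smaller SD than Hba-a1, 97.4% than Hbb-bs and 90.1% than Alas2. The summed globin level showed no relation to depth: its r with the log2 library total was −0.23 (rho −0.27, permutation p = 0.350) and with the TMM factor 0.16 (rho 0.18, permutation p = 0.493, adjusted p = 0.493 for each).

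The name of the list was checked against other genes of the red cell, and its levels were mixed. Of 32 membrane and late red cell genes, 11 averaged under 0.2 CPM and 19 at least 1 CPM. Among the low ones, the band 3 anion exchanger Slc4a1 averaged 0.0235 CPM with 12 of 20 mice at 0, the Rh-associated protein Rhag was at 0 in all 20, Hemgn was at 0 in 14 and Trim58 in 19. Ahsp, the alpha globin chaperone, averaged 0.123 CPM. The embryonic globins Hba-x, Hbb-bh1 and Hbb-bh2 were at 0 in all 20 mice and Hbb-y in 18. The skeleton genes Epb41, Ank1 and Sptb, at 93.8, 44.2 and 30.7 CPM, and the erythroid regulator Gata1, at 2.71 CPM, were present in every mouse. The 16 genes of the membrane list summed to 178 to 233 CPM in controls, 168 to 203 CPM at 10 mg/L and 192 to 238 CPM at 500 mg/L, and over the 20 mice, which share these libraries with the globin values, the log2 sum had an r of −0.38 with the log2 globin sum. The 4 globins and Alas2 are therefore described as separate measures below, and not as 1 measure of blood.

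At 10 mg/L, 0 of 5 genes passed against the controls of the same experiment (edgeR quasi-likelihood test, Benjamini-Hochberg adjusted p under 0.05; 0% of all genes passed). All 5 estimates were positive, on the log2 scale 0.45 for Hba-a1 (SE 0.58, adjusted p = 0.923), 0.53 for Hbb-bs (SE 0.63, adjusted p = 0.916), 0.24 for Hbb-bt (SE 0.61, adjusted p = 0.968), 0.38 for Hba-a2 (SE 0.90, adjusted p = 0.966) and 0.40 for Alas2 (SE 0.43, adjusted p = 0.904). Each was smaller than its SE, and 0 of 5 had an unadjusted p under 0.05 (6.45% of all genes did). DESeq2 and limma-trend also called 0 of the 5, and the share of all genes that they called is not given here. With replicate 2 at 10 mg/L left out, Hba-a1 came to 0.12, Hbb-bs to 0.17 and Hba-a2 to −0.33, and with replicate 1 left out Alas2 came to 0.10. Hbb-bt came to 0.018 with control replicate 3 left out. The median over the 5 genes was 0.40 and over all genes 0.00. These positive signs are not independent, because the globins rose and fell together across mice. The genes were also chosen for higher values at the higher dose, in a contrast that shares controls with the tests at 10 mg/L. Low values in shared controls can raise both sets of estimates, so the shared sign and the median are given as a description. Against the 10 controls of both experiments, 0 of 5 passed as well (0.00561% of all genes did), with Hba-a1 at 0.64 (SE 0.48), Hbb-bs at 0.70 (SE 0.52) and Alas2 at 0.46 (SE 0.36), adjusted p from 0.878 to 0.930 over the 5 genes. Here too 0 of 5 had an unadjusted p under 0.05, as 6.22% of all genes did.

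At 500 mg/L the values were as follows, beside those at 10 mg/L with which they share the controls. Because this contrast chose the list, no call is given for it. Against all controls, Alas2 measured 10.5 ± 9.48 CPM against 4.68 ± 1.55 CPM (SD, n = 5 and n = 10; log2 difference 1.16, SE 0.35), and 0.42 without replicate 2. Hba-a1 measured 33.1 ± 24.8 CPM against 17.8 ± 9.80 CPM (0.89, SE 0.48), and 0.43 without replicate 4. Hbb-bs measured 28.2 ± 18.9 CPM against 16.9 ± 10.0 CPM (0.74, SE 0.52), and 0.40 without replicate 4. Hbb-bt stood at 0.67 (SE 0.51), and 0.32 without replicate 5, while Hba-a2 stood at 0.14 (SE 0.91), between −0.06 without replicate 4 and 0.81 without control replicate 1. The highest value of Alas2 thus came from a mouse other than those with the highest globins. Replicates 4 and 5 at 500 mg/L, however, lay above all controls in Alas2 as well as in Hba-a1 and Hbb-bs.

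Against the controls of experiment 1 alone, the differences at 500 mg/L were 1.11 for Hba-a1 (SE 0.58), 0.93 for Hbb-bs (SE 0.63), 0.87 for Hbb-bt (SE 0.61), 1.93 for Hba-a2 (SE 1.08) and 1.22 for Alas2 (SE 0.44). Hba-a1 came to 0.65 and Hbb-bs to 0.60 when replicate 4 at 500 mg/L was left out, Hbb-bt to 0.53 without replicate 5, and Alas2 to 0.48 without replicate 2. Between the controls of experiments 1 and 2, 0 of 5 passed (edgeR; 0.157% of all genes did). Hba-a2 was the 1 gene with an unadjusted p under 0.05, with a mean of 0.0727 ± 0.0551 CPM in experiment 1 and 0.453 ± 0.452 CPM in experiment 2 (SD, 5 mice each) and a log2 difference of −2.58 (SE 1.07, edgeR adjusted p = 0.430), and 9.78% of all genes had such a p. The other globins stood at −0.36 to −0.41 and Alas2 at −0.11. The effects of the doses, each against its own controls, differed by 0.67 in Hba-a1 (SE 0.81) and by 0.82 in Alas2 (SE 0.61), given as a description because the 500 mg/L mice enter it.

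**Figure D3:**
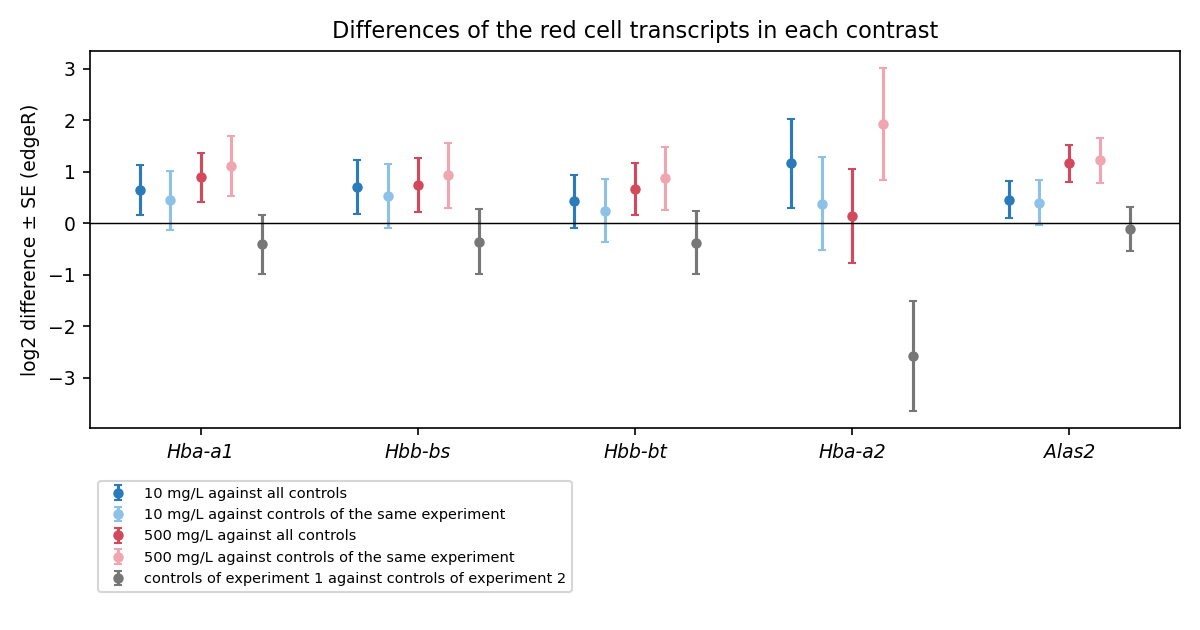
Log2 differences of each gene with SE bars (edgeR) for both doses against all controls and against the controls of their own experiment, and between the controls of the experiments. The bars at 10 mg/L against own controls reach 0 for all genes, and Hba-a2 has the widest bars.

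Which other genes followed globin level among mice of the same group and experiment was asked with a slope fit, in which the log2 of the summed globin CPM was a term beside group and experiment. A slope of 1 means that a gene changes in proportion to the globins. Of 17806 genes, the 4 globins left out, 6 passed (0.0337%; edgeR, adjusted p under 0.05), all with a positive slope, and 2248 (12.6%) had an unadjusted p under 0.05. Of these 6, 4 averaged at least 1 CPM: Bace2, a protease related to the one that cleaves amyloid precursor protein, Aatk, a kinase, Aplp1, an amyloid precursor-like protein, and Dlk1, a non-canonical Notch ligand. The 2 others, E330035G20Rik and the tight junction gene Cldn18, averaged 0.456 and 0.907 CPM and were singled out after their values were seen. DESeq2 called 202 genes and limma-trend 5.

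Bace2 had a slope of 0.84 (SE 0.12, edgeR adjusted p = 0.00939). It measured 92.8 and 53.1 CPM in replicates 2 and 5 at 10 mg/L and 35.3 and 37.9 CPM in replicates 4 and 5 at 500 mg/L, the 4 mice with the most globin, and 9.53 to 42.2 CPM in controls. The low-globin mice of the same groups, replicate 1 at 10 mg/L and replicate 2 at 500 mg/L, measured 12.1 and 9.44 CPM. Not every mouse followed this order. Replicate 1 at 500 mg/L, with 49.1 CPM of summed globins, measured 8.71 CPM, and control replicate 2, with 41.5 CPM, measured 10.0 CPM. Aatk had a slope of 0.74 (SE 0.10, adjusted p = 0.00939), Aplp1 of 0.37 (SE 0.05, adjusted p = 0.00970) and Dlk1 of 0.54 (SE 0.09, adjusted p = 0.0257). Their highest mice were replicate 2 at 10 mg/L for Aatk (16.1 CPM), control replicate 6 for Aplp1 (5.98 CPM) and replicate 4 at 500 mg/L for Dlk1 (8.80 CPM).

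Cldn18 (slope 2.38, SE 0.35, adjusted p = 0.0100) ran from 0 to 6.91 CPM and E330035G20Rik (slope 1.53, SE 0.23, adjusted p = 0.0100) from 0 to 1.99 CPM. When 1 mouse at a time was left out, Bace2 and Aatk passed in 20 of 20 fits, Aplp1 and Cldn18 in 19, E330035G20Rik in 17 and Dlk1 in 15. The count moved by over 1.5 times without 4 of the mice: to 15 genes without control replicate 3 and without control replicate 4, to 10 without control replicate 8, and to 3 without replicate 4 at 500 mg/L. With the 4 globins, which make the index, kept in the adjustment of p, 10 other genes passed instead of 6.

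**Figure D4:**
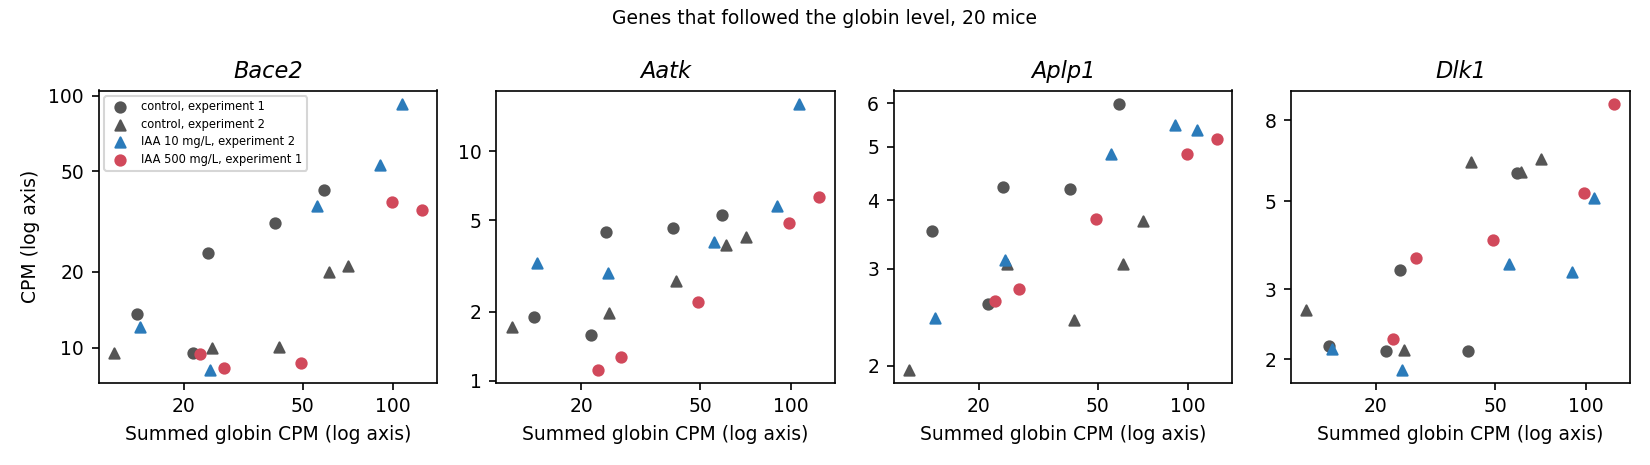
CPM of Bace2, Aatk, Aplp1 and Dlk1 against the summed CPM of the 4 globins (log axes) in 20 mice, with colour for group and shape for experiment. All 4 genes tend to be higher in mice with more globin, with exceptions such as Bace2 at 8.71 CPM in replicate 1 at 500 mg/L. Aatk is highest, at 16.1 CPM, in replicate 2 at 10 mg/L.

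By likeness, the 10 genes of at least 1 CPM with the highest Pearson r with the log2 globin sum over 20 mice were Ptcd1 (0.83), Gpr157 (0.81), Acp2 and Ltn1 (0.79 each), Dlk1 (0.77), Aplp1, Cacna2d2, Zdhhc15 and Ptprq (0.76 each) and Bace2 (0.75). Of these, 7 did not pass the slope fit, and Ptcd1 varied only from 26.8 to 32.1 CPM. These r values rank genes picked from all those tested and carry no p.

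In 15 lists of blood, vessel and follicle markers, 0 genes passed the slope fit, and the lists are given by their counts beside the all-gene median slope of 0.00. Of all genes, 49.3% had a positive slope. Of 16 red cell membrane and skeleton genes, 12 were tested and 8 had a positive slope (median 0.02). The skeleton gene Add2 had a slope of 0.36 (edgeR adjusted p = 0.174) and the protein 4.1 gene Epb41 a slope of −0.08 (adjusted p = 0.332). Of the late red cell genes 10 were tested and 5 were positive (median 0.00). Among 8 erythroid regulators 5 were positive (median 0.06), among them the transferrin receptor Tfrc at 0.18 (adjusted p = 0.191). Nfe2, which averaged 0.373 CPM, stood at 0.51 (adjusted p = 0.258) and Gata1 at 0.21 (adjusted p = 0.301). The erythropoietin receptor Epor was negative, at −0.12 (edgeR adjusted p = 0.589).

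Of the 12 heme synthesis genes other than Alas2, 2 were positive (median −0.03). Alas1, the first enzyme of the pathway outside red cells, stood at −0.33 (adjusted p = 0.358), the mitochondrial iron carrier Slc25a37 at −0.12 (adjusted p = 0.203) and Alad at 0.13 (adjusted p = 0.240). Alas2 itself had a slope of −0.32 (SE 0.14, adjusted p = 0.366), and of −0.13 (SE 0.12) without replicate 2 at 500 mg/L. Of 13 heme breakdown and iron genes 8 were positive (median 0.03), among them the heme oxygenase Hmox1 at 0.06, and 0 had an unadjusted p under 0.05. Among the other globins only 2 of 9 in the table were tested, with cytoglobin (Cygb) at 0.23 (adjusted p = 0.267).

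Of the vessel and follicle lists, 0 genes passed, and several lists had mostly positive slopes. All 13 endothelial genes were positive (median 0.10), among them the sialomucin Emcn at 0.15 (adjusted p = 0.230), the VEGF receptor Kdr at 0.17 (adjusted p = 0.262) and Flt1 at 0.20 (adjusted p = 0.264), and 6 of 13 had a positive slope with an unadjusted p under 0.05, as 7.03% of all genes did. Their summed level was 350 to 573 CPM in controls, 435 to 638 CPM at 10 mg/L and 364 to 566 CPM at 500 mg/L. All 11 pericyte and muscle genes were positive (median 0.17), with Pdgfrb at 0.34 (adjusted p = 0.235). The 10 oocyte genes were all positive too (median 0.14), 9 of 10 macrophage genes were (median 0.19), 4 of 9 theca genes (median −0.01) and 2 of 10 granulosa genes (median −0.13), with the FSH receptor Fshr at −0.28 (adjusted p = 0.235). A positive slope with an unadjusted p under 0.05 (edgeR) was not limited to the endothelial list. It was found in 3 of 11 pericyte and muscle genes, 2 of 10 oocyte genes and 3 of 8 erythroid regulators. The counts were 1 of 10 for granulosa, 1 of 9 for theca and 0 of 10 for macrophage genes. Genes of 1 list can vary together, so these are not counts of independent genes. The part of the cells of these lists in the globin values was not tested.

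Markers of white cells were low and those of platelets were mixed. The neutrophil list summed to 1.30 to 3.34 CPM in controls, 1.34 to 2.69 CPM at 10 mg/L and 1.62 to 2.64 CPM at 500 mg/L, and only 2 of its 12 genes were tested. The neutrophil elastase gene Elane was at 0 in all 20 mice. Lymphocyte genes summed to 2.94 to 6.19 CPM over all mice, and 5 of the 9 tested were positive (median 0.04). The platelet list summed to 51.1 to 121 CPM over all mice, of which the integrin gene Itgb3, singled out after its values were seen, made up 71.8 CPM on average. Alox12 averaged 4.14 CPM and the other 13 genes each under 1 CPM. Gp9 was at 0 in 15 mice and Pf4 averaged 0.600 CPM, and 6 of the 7 platelet genes tested were positive (median 0.10).

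**Figure D5:**
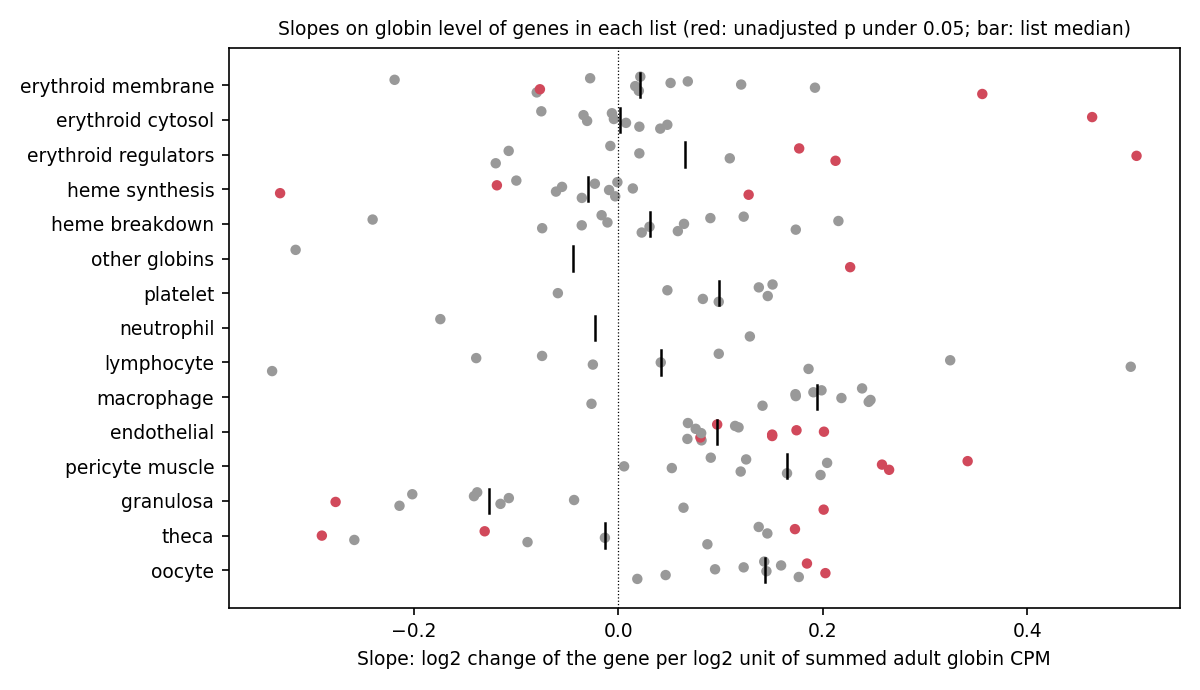
Slope of each tested list gene on globin level (log2 per log2 unit; 1 point per gene, bar at the list median, red for an unadjusted p under 0.05). All endothelial, pericyte and oocyte genes lie right of 0, and the red cell lists centre near 0.

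With log2 Alas2 in place of the globins, 0 of 17809 genes passed (0%; edgeR), 1205 (6.77%) had an unadjusted p under 0.05, and 817 did without replicate 2 at 500 mg/L. In the membrane list Ank1, an ankyrin, had a slope of 0.44 on Alas2 (SE 0.09, adjusted p = 0.446) and was singled out after its values were seen. Without replicate 2 at 500 mg/L, Ank1 stood at 0.58 (SE 0.12, adjusted p = 0.941).

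With the globin level as a covariate, the dose contrasts against all controls were fitted again. The only genes called without it were Mid1, a microtubule-associated ubiquitin ligase (at both doses), and Tmsb15b1, a beta-thymosin (at 500 mg/L). At 10 mg/L, Mid1 had a log2 difference of 1.00 (SE 0.16, edgeR adjusted p = 0.0471) without the covariate and 0.96 (SE 0.16, adjusted p = 0.180) with it. At 500 mg/L Mid1 went from 1.01 (adjusted p = 0.0220) to 0.95 (adjusted p = 0.177) and Tmsb15b1 from 2.02 (adjusted p = 0.0220) to 2.01 (adjusted p = 0.0648). The number of genes called was 0 at each dose with the covariate (0% of all genes), against 1 at 10 mg/L and 2 at 500 mg/L without it (0.0112% of all genes at 500 mg/L), while the differences moved by less than 0.1.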

How the data were processed

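Levels rest on the authors' estimated counts, deposited as 1 table of genes by mice. The submitters' processing notes name Salmon 1.2.0, FastQC 0.11.8, R 4.1.2, edgeR, limma and build GRCm39, and how transcripts were summed to genes is not given in the sources used here. Per the labels' protocols, libraries were stranded and read for 101 bases from 1 end. The authors' own table of comparisons was not used here. Estimated counts were rounded to whole numbers, 17810 genes were kept by filterByExpr, and edgeR 4.0.16 (R 4.3.3, TMM, robust quasi-likelihood F-test, two-sided, Benjamini-Hochberg over all genes tested) was fitted over all 20 mice; in the slope fits the genes that make the index were left out of the adjustment, a choice made after the fit had first been run with them in. Correlations used log2 CPM (prior count 2) and 100000 permutations. The edgeR group and slope fits were tested on simulated counts with known changes. DESeq2 1.42.0, limma-trend (limma 3.58.1), other scalings, no filter, a replicate block and leaving out mice were alternatives.

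The experiment of each control was read from the table's header. The members and lists were chosen with earlier results of these data known. Genes named beyond the 5 are those past an adjusted p of 0.05 in the slope fit with a mean of at least 1 CPM, the 10 most like the globins, up to 4 genes of each list by slope p, and those called in a dose contrast with or without the globin level. Some genes of the lists are not reported here by name. Mice are separate animals, so p-values measure the spread between mice.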

Additional observations from a re-analysis of the deposited data

Results flagged for a closer look

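Of 27 sets of 5 or 10 mice examined for a value far from the rest, 2 were flagged. Chance flags about 1 in 20 such sets if values are normally distributed, so 2 flags are close to that rate. Hba-a2 in control replicate 1 measured 1.16 CPM, and the nearest of the other 9 controls measured 0.541 CPM. Alas2 in replicate 2 at 500 mg/L measured 27.1 CPM, and the nearest of the other 4 mice measured 8.13 CPM.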

How the results depend on the processing

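At 10 mg/L against all and own controls, and between controls, 0 of 5 genes passed with other size factors, no filter, DESeq2, limma-trend, globin reads left out of library sizes, leave-one-out and, chosen after seeing the data, without the 2 mice highest in Alas2. Fitting only the groups compared, run at 10 mg/L against all controls, also gave 0. The share of all genes called under these settings is not given here, so these counts say little about the 5 genes in particular. When 1 mouse was left out, directions turned in Hba-a2 at 10 mg/L against own controls (−0.33 to 1.09, the lowest without replicate 2 at 10 mg/L) and in Alas2 between controls (−0.39 to 0.041, the highest without control replicate 5), and Hba-a2 at 500 mg/L against all controls ran from −0.057 to 0.81. The number of genes following the globins, 6, was 202 by DESeq2, 10 with the globins kept in the p adjustment (also chosen after seeing the data), 3 with no group or experiment term and 0 with Alas2 in place of the globins, and 3 to 15 when 1 mouse was left out. The cause was not tested. The genes called with the globin covariate, 0 at each dose, were 1 at 10 mg/L and 2 at 500 mg/L with no covariate, and 0 to 1 when 1 mouse was left out.

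Replicate numbers do not pair the mice: 3 of 15 same-numbered pairs correlated over 0.1 (−0.13 to 0.23), and in 5 of 15 the own number was the best match. With a replicate block, which keeps only control replicates 1 to 5, 1 gene followed the globins, 9 were called at 500 mg/L and 0 at 10 mg/L with the covariate, and Hba-a1 at 10 mg/L stood at 0.47 (edgeR adjusted p = 0.908); 0 of 5 genes passed at 10 mg/L. No paired analysis was possible for 500 mg/L against own controls or between controls because these groups share fewer than 2 replicate numbers. Depth limits Hba-a2, with at most 63 counts in a mouse.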
